A study of Mus musculus with 18 samples.

Results

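The genes described here are 31 members of the unfolded protein response, taken from a named list and each read by its brightest probeset that carries a single gene symbol. They are 31 of 19937 genes so measured in mouse hypothalamus, and 31 of 31 were found. The tissue came from wild-type mice and mice deficient in Wfs1, whose product, wolframin, sits in the membrane of the endoplasmic reticulum (ER). The strain is named 129SV for the samples and 129S6 for the series. No drug treatment or age is named, and neither the kind of Wfs1 allele nor any pooling of animals is given in the sources used here. Expression was read on 18 arrays, and each array carried a genotype field (KO or WT) and a title ending (ko or wt). Groups are written here as ending/field. Both labels gave one genotype on 9 arrays, 5 ko/KO and 4 wt/WT. They contradicted each other on the other 9, which were 5 ko/WT and 4 wt/KO. No choice was made between the labels, so each comparison below is of arrays that carry a label and not of known genotypes.

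When unfolded proteins build up in the ER, they are sensed by IRE1, PERK and ATF6 in the ER membrane. IRE1 splices the Xbp1 transcript so that it encodes an active transcription factor. PERK phosphorylates eIF2alpha, which lowers general translation and favours translation of ATF4. ATF6 moves to the Golgi, where proteases release its active part. The resulting factors raise ER chaperones, folding enzymes and the machinery of ER-associated degradation, and in prolonged stress the ATF4 branch induces CHOP, the product of Ddit3. Wolframin has been linked to this response, above all in insulin-producing cells. The hypothalamus holds secretory neurons that make large amounts of peptide hormone. The arrays measure transcript signal, so phosphorylation, cleavage and translation were not observed, and spliced and unspliced Xbp1 were not told apart.

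Promoters are shown first because the members were grouped by the branch that is known to control them. RefSeq sequence (build GRCm38.p6), from 250 bases before to 50 after the gene start, matched 28 of 31 members; Atf6, Hyou1 and Manf are named only. Both strands were searched for the ER stress element ERSE-I (CCAAT and CCACG, 9 bases apart), ERSE-II (ATTGG and CCACG, 1 base apart), the XBP1-type core TGACGTGG and the ATF4-type element TGATGNAA. ERSE-I occurred in 9 of 28 members and in 0.137% of 27025 genes. ERSE-II occurred in 2 of 28 members and in 0.0444% of genes, and the ATF4-type element in 5 of 28 and in 4.51%. The XBP1-type core occurred in 0 of 28 members and in 0.714% of genes. A match is a string of letters and was not tested as a binding site. The members were listed as genes of this response, so the contrast with all genes is no independent finding. The TGACGTGG core can share the letters CCACG with an ERSE on the other strand, and matches of different motifs were counted separately.

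Whole windows are printed for 4 members on which the results below turn, with every match in capitals. They are Hspa5 (chr2:34771840-34772139, plus strand), Hsp90b1 (chr10:86705395-86705694, minus strand), Herpud1 (chr8:94386179-94386478, plus strand) and Chac1 (chr2:119350992-119351291, plus strand). Hspa5 and Hsp90b1 encode the main ER chaperones, Herpud1 holds ERSE-II beside the ATF4-type element, and Chac1 holds the latter without an ERSE.
Hspa5: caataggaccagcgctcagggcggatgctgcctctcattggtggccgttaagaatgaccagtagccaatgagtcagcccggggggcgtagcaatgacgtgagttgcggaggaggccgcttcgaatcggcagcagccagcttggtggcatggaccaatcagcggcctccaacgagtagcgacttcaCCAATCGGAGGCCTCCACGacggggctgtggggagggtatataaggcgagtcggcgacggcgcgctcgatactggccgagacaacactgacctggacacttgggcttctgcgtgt
Hsp90b1: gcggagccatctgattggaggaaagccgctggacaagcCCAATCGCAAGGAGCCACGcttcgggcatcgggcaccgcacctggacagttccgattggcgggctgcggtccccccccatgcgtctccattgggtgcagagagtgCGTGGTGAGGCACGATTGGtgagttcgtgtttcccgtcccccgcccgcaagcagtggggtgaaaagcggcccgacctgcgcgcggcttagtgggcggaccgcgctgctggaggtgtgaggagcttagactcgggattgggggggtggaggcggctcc
Herpud1: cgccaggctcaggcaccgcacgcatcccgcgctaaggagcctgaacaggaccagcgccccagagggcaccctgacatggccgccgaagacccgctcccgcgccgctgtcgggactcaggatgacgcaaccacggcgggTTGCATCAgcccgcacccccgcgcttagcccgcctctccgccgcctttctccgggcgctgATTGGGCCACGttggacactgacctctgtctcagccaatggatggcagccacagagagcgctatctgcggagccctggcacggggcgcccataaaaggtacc
Chac1: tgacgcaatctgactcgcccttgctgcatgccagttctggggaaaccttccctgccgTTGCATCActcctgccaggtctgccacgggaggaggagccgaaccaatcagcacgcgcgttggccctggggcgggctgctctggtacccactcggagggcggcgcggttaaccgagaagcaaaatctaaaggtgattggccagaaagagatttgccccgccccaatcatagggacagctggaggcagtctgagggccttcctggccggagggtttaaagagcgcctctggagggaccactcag

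The ERSE matches of the other members are printed alone, in the direction of the motif, with the fixed letters in capitals and the spacer in lower case. They show how far the spacers differ while the outer letters stay fixed by the search.
Calr: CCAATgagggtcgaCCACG
Canx: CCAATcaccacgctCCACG
Creld2: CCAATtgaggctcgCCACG
Derl3: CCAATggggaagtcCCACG
Dnajc3: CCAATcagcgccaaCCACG
Pdia6: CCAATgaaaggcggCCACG
Syvn1: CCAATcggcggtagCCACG
Dnajb11: ATTGGcCCACG
In Hspa5 the match ran from 65 to 47 bases before the start, and in Syvn1 from 44 to 26. Hsp90b1 held 2 matches, from 212 to 194 and from 107 to 89 bases before the start, the nearer one on the opposite strand.

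Signals are in log2 units, and the median over all probesets was 7.10 to 7.19 on each array. Precision is limited by how many arrays there are. Of 16 listed markers of hypothalamic neurons 15 were measured, and 8 of them were above the median gene. Wfs1, the targeted gene, followed neither label: it was 8.72, 8.68, 8.41, 7.97 and 7.86 on the ko/KO arrays and 8.02, 8.04, 7.89 and 8.41 on the wt/WT arrays. On the ko/WT arrays Wfs1 was 7.98, 8.56, 8.07, 8.44 and 8.36, and on the wt/KO arrays 8.04, 7.92, 8.61 and 8.06. High and low values of Wfs1 thus occurred in every group, and the probeset may lie outside the altered part of the gene, in which case it checks nothing. A pair of arrays stood apart. On wt/WT 3 a choroid plexus transcript, Ttr, was 12.80. On ko/WT 4 a transcript of female cells, Xist, was 5.93, against 10.31 to 10.79 on the other arrays. The array ko/WT 4 was kept in the comparisons by ending, by field and on the contradicting arrays. The part of sex was not tested.

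Most members gave bright signals that varied little between arrays. Of 31 members 26 were above the median gene, 10 were in the brightest decile of all genes and 0 in the dimmest quartile. Their median SD over the 18 arrays was 0.101 log2 units, against 0.133 for all genes, and 7 of 31 had an SD above that of the median gene. The SD of equally bright genes was not worked out, so the low scatter is not shown to be particular to the members. The order that follows is one of probeset signals. Probes differ in how brightly they bind, so it is not an order of transcript amounts.

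The 3 brightest probesets belonged to chaperones and folding enzymes of the ER. Canx, a lectin chaperone of the ER membrane, averaged 11.97 log2 units (SD 0.091, n = 18), and Hsp90b1, the ER form of HSP90, 11.73 (SD 0.11). Pdia3, a disulfide isomerase that works with the lectin chaperones, averaged 11.45, Hspa5 (BiP), the main ER chaperone, 11.12, and Calr, the soluble lectin chaperone, 10.70. Pdia6 and Pdia4, also disulfide isomerases, averaged 10.14 and 9.54, and Hyou1, which exchanges nucleotide on BiP, 10.03. The BiP cochaperones Dnajc3 and Dnajb11 averaged 9.66 and 9.04, and the secretable ER proteins Manf and Creld2 8.64 and 8.33. Sdf2l1, a partner of Dnajb11, was the dimmest of the 13 at 7.96.

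Genes of ER-associated degradation gave signals from 6.79 to 10.45. The Hrd1 ligase complex was read by Sel1l at 10.45 and by its ligase Syvn1 at 8.48. Herpud1, which binds that complex, averaged 10.16, and Dnajb9, a BiP cochaperone that also restrains IRE1, 9.38. Edem1, which directs misfolded glycoproteins to degradation, averaged 8.14 and Derl3, a derlin, 6.79, the lowest signal of all members.

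Sensors and transcription factors gave signals from 6.89 to 9.73. Among the sensors Eif2ak3 (PERK) averaged 8.70, Atf6 8.60 and Ern1 (IRE1) 7.5. Of the factors Xbp1 averaged 9.73, Atf4 8.94, Ddit3 8.01, Atf5 7.96 and Atf3 6.89. Of the outputs of the PERK branch, Asns, which makes asparagine, stood at 11.16. Chac1, which degrades glutathione, averaged 8.11, Ppp1r15a (GADD34), which directs a phosphatase to eIF2alpha, 7.21, and the pseudokinase Trib3 6.98.

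Of the 30 gaps between neighbours in this order 14 were smaller than the larger SD of the neighbours. They were Asns and Hspa5, Herpud1 and Pdia6, the steps from Xbp1 through Dnajc3 and Pdia4 to Dnajb9, Dnajb11 and Atf4, and the steps from Eif2ak3 through Manf to Atf6. The others were the steps from Edem1 through Chac1, Ddit3 and Sdf2l1 to Atf5, and those from Trib3 through Atf3 to Derl3. Pdia4 was the only member with 2 single-gene probesets, and the dimmer one averaged 6.22.

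**Figure D1:**
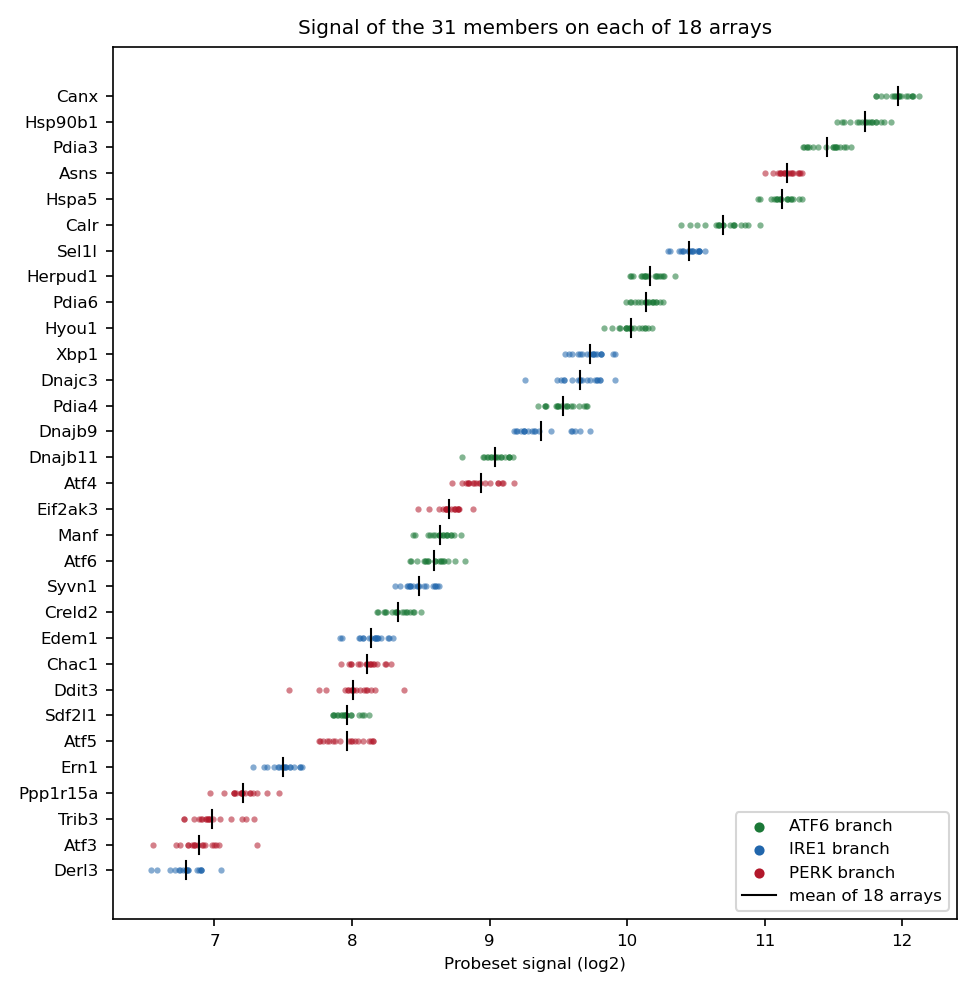
Log2 signal of the brightest single-gene probeset of each of the 31 members on each of 18 arrays, ordered by mean. Points are arrays coloured by stress branch and the black bar is the mean. Canx is highest at a mean of 11.97, Derl3 lowest at 6.79, and Dnajb9, Ddit3 and Atf3 show wide scatter.

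The members with the largest SD came from every branch. Dnajb9 had the largest, at 0.18. It was 9.73, 9.25, 9.18, 9.59 and 9.60 on the ko/KO arrays, 9.25, 9.19, 9.45, 9.33 and 9.32 on ko/WT, 9.62, 9.66, 9.28 and 9.25 on wt/KO, and 9.23, 9.20, 9.36 and 9.31 on wt/WT. Its 5 highest values, from 9.59 to 9.73, all lay on arrays with the field KO, and the other 4 such arrays lay from 9.18 to 9.28, beside the field WT arrays at 9.19 to 9.45.

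Ddit3, whose product CHOP promotes cell death in prolonged stress, was 7.76, 8.03, 8.09, 7.97 and 7.95 on ko/KO, 8.10, 8.0, 8.17, 8.01 and 8.11 on ko/WT, 8.38, 7.99, 8.06 and 8.14 on wt/KO, and 8.01, 7.54, 7.97 and 7.81 on wt/WT. The highest and the lowest value stood on wt/KO 1 and wt/WT 2, and the groups overlapped. Atf3, a stress and activity induced factor, was 7.03, 6.92, 6.72, 6.84 and 6.55 on ko/KO, 6.91, 7.0, 6.88, 6.85 and 6.75 on ko/WT, 6.81, 6.85, 7.31 and 7.01 on wt/KO, and 6.81, 6.86, 6.98 and 6.93 on wt/WT. The groups overlapped here too, with the extremes on wt/KO 3 and ko/KO 5.

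Dnajc3, a BiP cochaperone that also inhibits PERK, was 9.77, 9.26, 9.66, 9.80 and 9.91 on ko/KO, 9.78, 9.54, 9.80, 9.67 and 9.71 on ko/WT, 9.73, 9.78, 9.64 and 9.60 on wt/KO, and 9.49, 9.54, 9.66 and 9.52 on wt/WT. Its lowest and highest values both lay on ko/KO arrays. Calr was 10.97, 10.66, 10.67, 10.75 and 10.57 on ko/KO, 10.70, 10.65, 10.51, 10.86 and 10.46 on ko/WT, 10.88, 10.83, 10.77 and 10.78 on wt/KO, and 10.39, 10.67, 10.78 and 10.70 on wt/WT. The 4 wt/KO values of Calr lay close together, within the range of the ko/KO arrays. Trib3 ranged from 6.78 to 7.29, Atf5 from 7.76 to 8.15 and Atf4 from 8.73 to 9.18.

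In the values as deposited, members of the ATF6 branch varied together across the arrays, and those of the PERK branch hardly did. Each member was assigned to the branch it is best known to follow, though many targets respond to both ATF6 and XBP1. The mean Pearson r over 18 arrays was 0.26 among the 14 members of the ATF6 branch, where 76 of 91 pairs were positive. It was 0.19 among the 8 of the IRE1 branch, with 21 of 28 pairs positive, and 0.030 among the 9 of the PERK branch, with 20 of 36. Between the ATF6 and IRE1 branches it was 0.22, and between PERK and these it was 0.025 and 0.022. The 465 pairs of members averaged 0.127 and all pairs of genes 0.012. No mean was worked out for pairs of equally bright genes, so these values are not shown to be particular to the members or to a branch. These means are descriptions: the pairs share arrays, RNA and normalization. After quantile normalization of the arrays the mean r was 0.12 within the ATF6 branch, 0.13 within IRE1 and 0.035 within PERK. Between ATF6 and IRE1 it was then 0.13, and over all members 0.072. The ATF6 branch thus no longer stood above the IRE1 branch.

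By role, the 13 chaperones and folding enzymes were the most alike, with a mean r of 0.32 and 68 of 78 pairs positive. After quantile normalization this was 0.19. The single highest pair among all members was Hsp90b1 and Canx (r = 0.797), followed by Pdia6 and Dnajb11 (0.776) and Dnajc3 and Eif2ak3 (0.773). Herpud1 and Atf4, of different branches, reached 0.766. For the other members whose window holds the ATF4-type element, r with Atf4 was 0.309 for Asns, 0.150 for Chac1, 0.140 for Atf3 and -0.237 for Trib3. Atf5 and Chac1, both of the PERK branch, reached 0.746. The lowest pairs joined Sel1l with Atf5 (-0.776) and with Chac1 (-0.758). Of 31 members 24 had a higher mean r with their own branch than with the others, and no reference share was worked out. They include Sdf2l1, Trib3 and Ppp1r15a, whose mean r with their own branch was negative, at -0.072, -0.054 and -0.0093. The 9 members with ERSE-I averaged 0.16 among themselves, and the 19 whose window holds none 0.074. After quantile normalization these means were 0.093 and 0.045, and with residuals from the 4 group means they were 0.083 and 0.074.

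**Figure D2:**
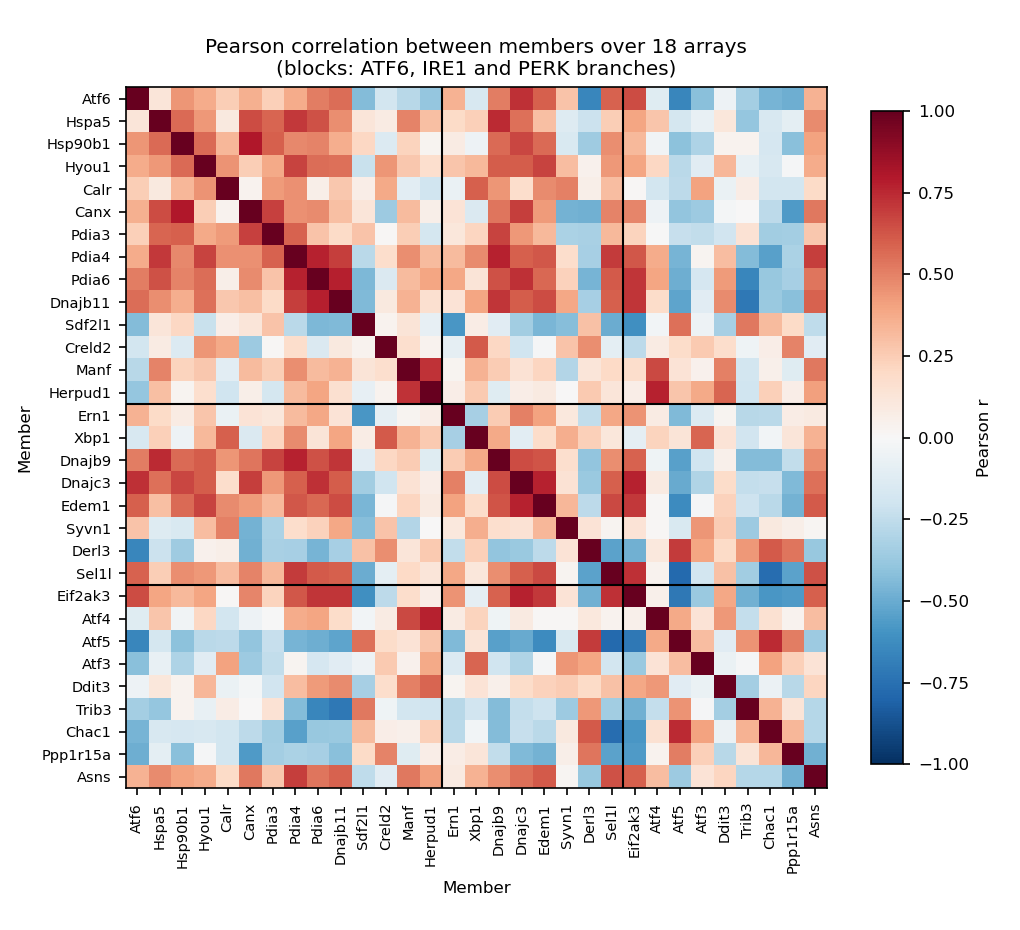
Pearson r between the 31 members over 18 arrays, with black lines between the ATF6, IRE1 and PERK branches. Red is positive and blue negative. Red fills most of the ATF6 block (mean r 0.26) and the PERK block is mixed (mean r 0.030).

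A set of 30 pairs was tested across the 18 arrays with 2-sided permutation tests of 100000 resamples. Most were drawn up from known relations between sensors, factors and targets, and the rest joined members with genes outside the list. They were chosen with earlier results of these data known, so the p-values are not those of a set fixed beforehand. After Benjamini-Hochberg adjustment over the 30, 2 passed 0.05. Hspa5 and Pdia4, both ER folding genes, correlated at r = 0.707 (permutation p = 0.00106, adjusted p = 0.0318) and rho = 0.769 (adjusted p = 0.0084), and at r = 0.734 without the 2 arrays farthest from the median of Hspa5. Hspa5 was 11.17, 11.07, 10.95, 11.25 and 11.19 on ko/KO, 11.05, 10.97, 11.27, 11.12 and 11.16 on ko/WT, 11.21, 11.19, 11.16 and 11.09 on wt/KO, and 11.09, 11.11, 11.11 and 11.08 on wt/WT. Leaving out 1 of wt/KO 1, wt/KO 2, ko/KO 2, ko/WT 2, ko/KO 4 or ko/WT 5 took this pair's adjusted permutation p to between 0.0525 and 0.0725. With the mean of the Pdia4 probesets r was 0.451.

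The sensors Atf6 and Eif2ak3 correlated at r = 0.654 (permutation p = 0.00326, adjusted p = 0.0489) and rho = 0.596 (adjusted permutation p = 0.110). Without the 2 arrays farthest from the median of Atf6 r was 0.424 (adjusted permutation p = 0.380), and the call did not hold. It was also lost without any 1 of 14 arrays, with r between 0.535 and 0.755 over all single omissions. Without the 3 arrays of smallest spread r was 0.675. Atf6 was 8.75, 8.42, 8.70, 8.65 and 8.82 on ko/KO, 8.67, 8.63, 8.54, 8.66 and 8.60 on ko/WT, 8.65, 8.60, 8.55 and 8.43 on wt/KO, and 8.47, 8.55, 8.53 and 8.52 on wt/WT. The extremes of Atf6 both lay on ko/KO arrays.

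The other 28 pairs missed the adjusted threshold. Among them were the chaperones Hspa5 and Hsp90b1, whose ERSE matches are printed above (r = 0.566, adjusted permutation p = 0.142), Hspa5 and Manf (r = 0.499) and Hspa5 and Hyou1 (r = 0.437). Xbp1 and its target Dnajb9 gave r = 0.380. For targets of ATF4 the values were 0.309 with Asns and -0.237 with Trib3, and Chac1 and Trib3 gave 0.345. Ddit3 and Atf3 gave -0.064. Across branches the sensors Ern1 and Eif2ak3 gave 0.451 and Atf6 and Ern1 0.349. Pairs with genes outside the list gave 0.454 for Hspa5 with the cytosolic chaperone Hspa8, 0.237 for Atf3 with the activity marker Fos, 0.338 for Xbp1 with the neuropeptide gene Avp, and -0.283 for Hspa5 with Ttr. Many of these values moved widely when 1 array was left out. Over single omissions r ran from 0.226 to 0.608 for Xbp1 and Dnajb9, from 0.169 to 0.470 for Atf4 and Asns, and from -0.311 to -0.135 for Atf4 and Trib3. It ran from 0.150 to 0.538 for Chac1 and Trib3, from 0.147 to 0.492 for Atf6 and Ern1, and from 0.292 to 0.561 for Ern1 and Eif2ak3. For Xbp1 and Avp it ran from 0.222 to 0.444. Atf3 and Fos gave -0.0225 without wt/KO 3, and Ddit3 and Atf3 0.014 without ko/KO 1.

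The spread of all values on an array moved with many members. The SD of all values ran from 1.93 to 1.96 log2 units on 3 arrays, wt/WT 2, ko/KO 2 and wt/WT 1, and from 1.99 to 2.04 on the other 15. Of 31 members 14 had their lowest value on 1 of these 3 arrays, as did 32.7% of all genes. Of 31 members 23 correlated positively with this SD, with a median r of 0.40, against 48.7% of all genes but 77.8% of genes brighter than the median. The members, of which 26 are brighter than the median gene, thus stood near the share of bright genes.

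Dnajb11 and Pdia6 followed the array SD most closely, with r = 0.778 and 0.772 over 18 arrays. Edem1, Eif2ak3, Sel1l and Dnajc3 had r from 0.740 to 0.753, and Ppp1r15a and Atf5 had -0.621 and -0.565. Without the 3 arrays of smallest spread r was 0.63 for Dnajb11, 0.76 for Pdia6 and 0.59 for Dnajc3. It was then 0.38 for Eif2ak3, 0.28 for Edem1, 0.23 for Sel1l, -0.11 for Ppp1r15a and -0.25 for Atf5. These r were added after the data were seen, and each array SD, taken over 34760 probesets, includes the members' own values. With permutation tests of r, 16 of 31 members had an adjusted p under 0.05. No such share was worked out for all genes, so the r are read as descriptions. The spread was smallest on arrays that carry the labels ko/KO and wt/WT, so it touches the comparison of the agreeing arrays in particular. Its part in the covariation was not tested. Without the 3 arrays the mean r was 0.27 within the ATF6 branch, 0.12 within IRE1 and 0.062 within PERK. It was 0.34 among the chaperones and folding enzymes, 0.18 between the ATF6 and IRE1 branches and 0.12 over all members.

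**Figure D3:**
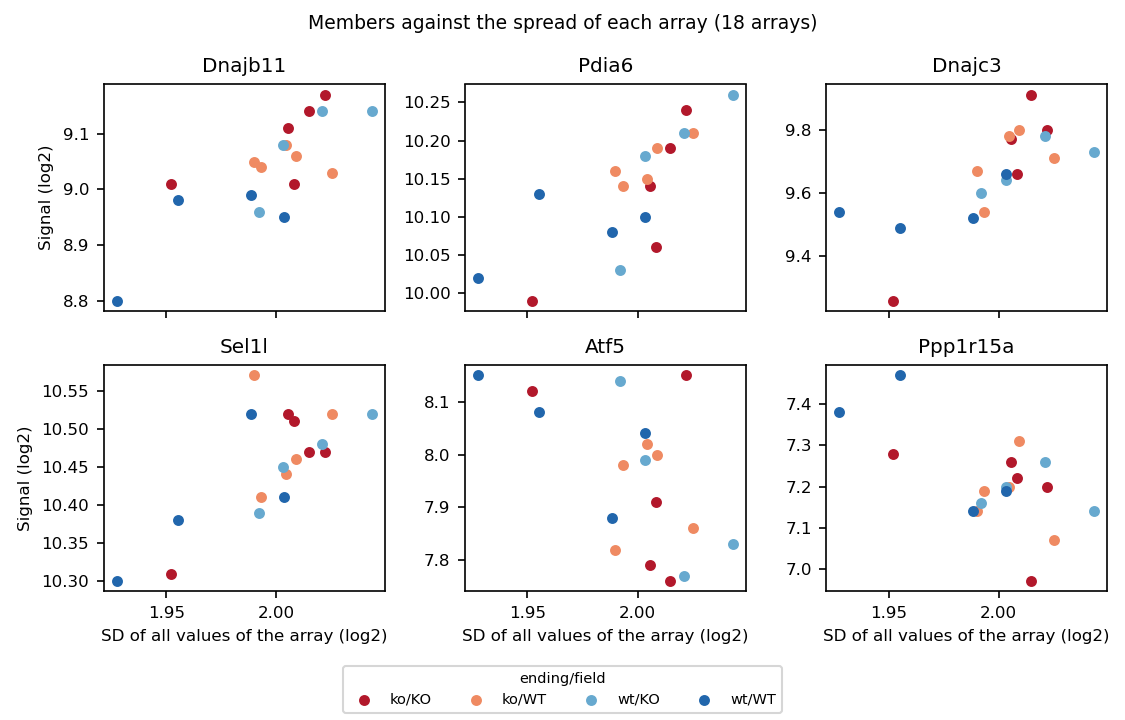
Log2 signal of 6 members against the SD of all log2 values of each array, 1 point per array, coloured by ending/field. Dnajb11, Pdia6, Dnajc3 and Sel1l are high where the SD is large, and Atf5 and Ppp1r15a are low there. The 3 arrays under 1.96 stand apart on the left. Without them r was 0.23 for Sel1l, -0.25 for Atf5 and -0.11 for Ppp1r15a.

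By title ending no member passed the test. The question was whether arrays labelled mutant differ from those labelled wild type. With limma, 0 of 31 members and 0 of 19937 genes (0%) had a Benjamini-Hochberg adjusted p under 0.05. At an unadjusted p under 0.05 stood 1 member, against 4.63% of all genes. Of 31 members 14 were higher and 17 lower with the ending ko (51.6% of all genes were higher), with a median log2 difference of -0.0095 against 0.003 for all genes. Among genes outside the dimmest 40% of signals, 66.6% of genes and 14 of 28 members were higher, with a median of 0.023 for all of these genes. After quantile normalization 8 of 31 members were higher and 23 lower. For 0 of 31 members the groups did not overlap, as for 0.00502% of genes. The member was Atf6, with means of 8.64 for ko (SD 0.11, n = 10) and 8.54 for wt (SD 0.069, n = 8), a difference of 0.11 (SE 0.049, limma adjusted p = 0.884). Its value on every array is given above.

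By role the median differences with the ending ko stayed small. Sensors were higher for 2 of 3, with Eif2ak3 at 0.067 (SE 0.046). Factors were lower for 4 of 5, with Atf3 at -0.10 (SE 0.069) and Atf5 at -0.044. Chaperones and folding enzymes were higher for 6 of 13, with Dnajb11 at 0.065 and Dnajc3 at 0.070, and degradation genes for 4 of 6, with Derl3 at -0.073 and Sel1l at 0.037. After quantile normalization, and also with the array SD as a covariate, chaperones were higher for 2 of 13 and degradation genes for 2 of 6. Without the 3 arrays of smallest spread these counts were 5 of 13 and 1 of 6. Outputs of the PERK branch were higher for 1 of 4, with Asns at 0.055 and Ppp1r15a at -0.059. The 95% intervals of all members together spanned -0.24 to 0.21, so larger differences by this label lie outside the interval of every member. Some of these values moved when 1 array was left out. Atf3 was -0.048 without wt/KO 3, and Derl3 was -0.042 when wt/KO 4 was left out. Without wt/WT 2 Dnajb11 was 0.036, Eif2ak3 0.040, Sel1l 0.018, Asns 0.036 and Atf5 -0.020. Dnajc3 ran from 0.046 without ko/KO 5 to 0.12 without ko/KO 2, and Ppp1r15a was -0.026 without wt/WT 1. Atf5 was -0.075 without wt/KO 2. In bulk tissue fewer cells of a type and less RNA per cell cannot be told apart.

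Several lists of cell type markers leaned to 1 side by ending. No marker passed an adjusted p of 0.05 with limma, and the list medians overlapped between endings. Of all genes 51.6% were higher with ko, and 66.6% outside the dimmest 40%, so the share depended on signal. Above the median gene were 2 of 12 choroid plexus, 8 of 15 hypothalamic neuron and 10 of 11 oligodendrocyte markers. The share among genes as bright as each list was not worked out. Choroid plexus markers were lower with ko for 11 of 12, and the median of the list ran from 6.36 to 6.66 on ko and from 6.28 to 7.21 on wt arrays. Markers of hypothalamic neurons were lower for 14 of 15, with list medians of 7.48 to 7.95 on ko and 7.6 to 8.02 on wt arrays. Oligodendrocyte markers were higher for 11 of 11, with 9.58 to 9.95 and 9.31 to 9.86. Their part in the differences by ending was not tested.

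By genotype field 26 of 31 members had a higher mean with KO and none passed the test. With limma, 0 of 31 members and 0 of 19937 genes (0%) had an adjusted p under 0.05, and 1 member and 6.95% of genes had an unadjusted p under 0.05. A higher mean with KO occurred in 46.6% of all genes. Most members are bright, and among genes outside the dimmest 40% it occurred in 61.8% of genes and in 24 of 28 members, with a median of 0.018 for all of these genes. The median log2 difference was 0.036 for the members and -0.0056 for all genes. After quantile normalization 21 were higher and 10 lower. For 0 of 31 members the groups did not overlap, as for 0.00502% of genes. With the array SD as a covariate, chosen after seeing the data, 22 of 31 were higher and the median was 0.015.

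The chaperones and folding enzymes were higher for 13 of 13, with a median log2 difference of 0.050, for 11 of 13 after quantile normalization and for 10 of 13 with the array SD as a covariate. Calr was at 0.13 (SE 0.064, limma adjusted p = 0.694), Creld2 at 0.090 (SE 0.045) and Dnajb11 at 0.087. The degradation genes were higher for 5 of 6. Dnajb9, whose values on every array are given above, was 9.46 (SD 0.22, n = 9) with KO and 9.29 (SD 0.084, n = 9) with WT, a difference of 0.17 (SE 0.073, limma adjusted p = 0.694). Edem1 was at 0.090 (SE 0.050). Of the factors Xbp1 was at 0.087 (SE 0.049) and Ddit3 at 0.072, of the sensors Atf6 at 0.044 and Ern1 at -0.032, and of the PERK outputs Trib3 at -0.059 and Ppp1r15a at -0.044. The 95% intervals of all members spanned -0.20 to 0.32.

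Several of the smaller differences by field moved when 1 array was left out. Ddit3 ran from 0.019 without wt/WT 2 to 0.11 without ko/KO 1, and was 0.030 without wt/KO 1. Atf6 ran from 0.019 without ko/KO 5 to 0.069 without ko/KO 2. Ern1 ran from -0.052 without ko/WT 2 to -0.0069 without ko/KO 2, and Trib3 from -0.10 without wt/KO 4 to -0.032 without wt/WT 2. Ppp1r15a ran from -0.065 without ko/WT 5 to -0.015 without wt/WT 1. With the array SD as a covariate Dnajb9 was 0.11, Edem1 0.043, Dnajb11 0.047, Trib3 -0.025, Atf6 0.0093 and Ddit3 0.0030, and Ppp1r15a turned to 0.00050. Calr was 0.12, Creld2 0.11 and Xbp1 0.080 in that fit.

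Several lists of tissue and cell type markers leaned to 1 side by field as well. No marker passed an adjusted p of 0.05 with limma, and the list medians overlapped between fields. Of all genes 46.6% were higher with KO, and 61.8% outside the dimmest 40%, so here too the share depended on signal. Above the median gene were 2 of 12 choroid plexus, 8 of 15 hypothalamic neuron, 6 of 8 microglia and 0 of 7 pituitary markers. The share among genes as bright as each list was not worked out. Choroid plexus markers were lower with KO for 11 of 12, with Ttr at -1.18, and the median of the list ran from 6.28 to 6.66 on KO arrays and from 6.36 to 7.21 on WT arrays. Markers of hypothalamic neurons were higher for 12 of 15, with list medians of 7.63 to 8.02 on KO and 7.48 to 7.85 on WT arrays. Microglia markers were higher for 8 of 8, with list medians of 8.04 to 8.60 and 8.04 to 8.34, and pituitary markers lower for 7 of 7, with 6.12 to 6.51 and 6.12 to 6.92. Their part in the result was not tested.

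Where both labels gave one genotype, 21 members had a higher mean for ko/KO than for wt/WT, 9 a lower and 1 an equal one. With limma, 0 of 31 members and 0% of genes passed an adjusted p of 0.05, and 0 members and 11.1% of genes an unadjusted one. A higher mean occurred in 49.5% of genes. The 95% intervals of all members spanned -0.32 to 0.43. The median log2 difference of the members was 0.054, and -0.013 with the array SD as a covariate, when 15 were higher and 16 lower. After quantile normalization 15 were also higher and 16 lower. Without the 3 arrays of smallest spread 22 were higher and 8 lower, with a median of 0.0425. Among genes outside the dimmest 40%, 68.4% of genes and 21 of 28 members were higher, with a median of 0.0465 for all of these genes. Of the 13 chaperones and folding enzymes 12 were higher as deposited, 7 after quantile normalization, 8 with the array SD as a covariate and 10 without the 3 arrays.

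Dnajb11 was the only member whose ko/KO and wt/WT values did not overlap, as 2.82% of all genes did. It was 9.11, 9.01, 9.01, 9.17 and 9.14 on ko/KO and 8.98, 8.80, 8.95 and 8.99 on wt/WT, a difference of 0.16 (SE 0.075, n = 5 and 4, limma adjusted p = 0.454). On the contradicting arrays it was 9.08, 9.04, 9.06, 9.05 and 9.03 on ko/WT and 9.14, 9.14, 9.08 and 8.96 on wt/KO, where the groups overlapped. Dnajb9 was at 0.20 (SE 0.11), Atf6 at 0.15 (SE 0.085), Trib3 at -0.13 (SE 0.090), Ddit3 at 0.13 (SE 0.10), Hyou1 at 0.097, Edem1 at 0.10, Asns at 0.091, Atf5 at -0.092 and Eif2ak3 at 0.078. With the array SD as a covariate Edem1, Eif2ak3 and Dnajc3 turned direction, to -0.018, -0.015 and -0.022 (Dnajc3 was 0.13 without it). In that fit Dnajb11 was 0.098, Dnajb9 0.091, Atf6 0.082, Ddit3 0.076, Hyou1 0.059, Calr 0.038 and Asns 0.021. Trib3 was -0.12 and Atf5 -0.014. Several of the values as deposited also moved when 1 array was left out. Calr was 0.089 and became 0.007 without wt/WT 1. Without wt/WT 2, Ddit3 was 0.030, Eif2ak3 0.025, Edem1 0.058, Asns 0.058 and Trib3 -0.076. Hyou1 was 0.059 without wt/WT 4, Eif2ak3 0.0375 without ko/KO 5, and Atf5 ran from -0.14 to -0.045 over single omissions. Choroid plexus markers were lower on ko/KO arrays for 12 of 12, and microglia markers were higher for 8 of 8.

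Where the labels contradicted each other, 7 members were higher with ko/WT than with wt/KO, 22 lower and 2 equal. With limma, 0 members and 0% of genes passed an adjusted p of 0.05, and an unadjusted p under 0.05 was reached by 1 member and 2.74% of genes. A higher mean occurred in 52.9% of genes, and the members' median log2 difference was -0.042. The 95% intervals of all members spanned -0.35 to 0.22. No member had groups that did not overlap, as 0.767% of all genes did. Calr was at -0.18 (SE 0.080, limma adjusted p = 0.9998), Creld2 at -0.10 (SE 0.059), Xbp1 at -0.098 (SE 0.054), Dnajb9 at -0.14 (SE 0.096), Atf3 at -0.12 (SE 0.097) and Edem1 at -0.092 (SE 0.053). The sensors Atf6 and Eif2ak3 were at 0.063 and 0.055, and the PERK outputs Chac1 and Asns at -0.074 and 0.020. Asns ran from -0.0025 without ko/WT 5 to 0.045 without wt/KO 3, and Eif2ak3 was 0.033 without wt/KO 4. Atf3 was -0.012 without wt/KO 3 and -0.18 without wt/KO 1. Dnajb9 was -0.075 without wt/KO 2, Atf6 0.020 without wt/KO 4, and Chac1 ran from -0.13 to -0.033 over single omissions. Among genes outside the dimmest 40%, 49.7% of genes and 6 of 28 members were higher. Markers of hypothalamic neurons were lower with ko/WT for 14 of 15. Choroid plexus markers were higher for 7 of 12 and lower for 5, with a median of 0.051, and Ttr stood at 0.86.

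The difference between the endings was set against itself in the agreeing and the contradicting arrays. This contrast uses the same arrays as the field and is the field difference doubled with the ending held fixed, so it is no further finding. Of 31 members 26 were above 0 (47.4% of all genes), with a median of 0.077. They numbered 21 after quantile normalization, 17 with the array SD as a covariate and 26 without the 3 arrays of smallest spread, where the median was 0.091. Among genes outside the dimmest 40%, 63.8% of genes and 24 of 28 members were above 0, with a median of 0.0415 for all of these genes. With limma, 0 members and 0% of genes passed an adjusted p of 0.05, and 2 members and 8.21% of genes an unadjusted one. They were Dnajb9 at 0.34 (SE 0.15, limma adjusted p = 0.589) and Dnajb11 at 0.19 (SE 0.085, limma adjusted p = 0.592). Calr was at 0.27 (SE 0.13), Edem1 at 0.19, Ddit3 at 0.19, Xbp1 at 0.18, Trib3 at -0.13, Ppp1r15a at -0.10, Atf6 at 0.088 and Ern1 at -0.060. Over single omissions Ddit3 ran from 0.0945 without wt/WT 2 to 0.25 without wt/WT 1, and Trib3 was -0.24 when wt/KO 4 was left out and -0.074 when wt/KO 1 or wt/KO 3 was. Ppp1r15a ran from -0.15 without wt/WT 4 to -0.043 without wt/WT 1, Atf6 from 0.050 without ko/KO 5 to 0.15 without ko/KO 2, and Ern1 from -0.10 without ko/KO 1 to -0.015 without ko/KO 2. With the array SD as a covariate Dnajb9 was 0.17, Dnajb11 0.11, Edem1 0.078 and Ddit3 0.094.

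**Figure D4:**
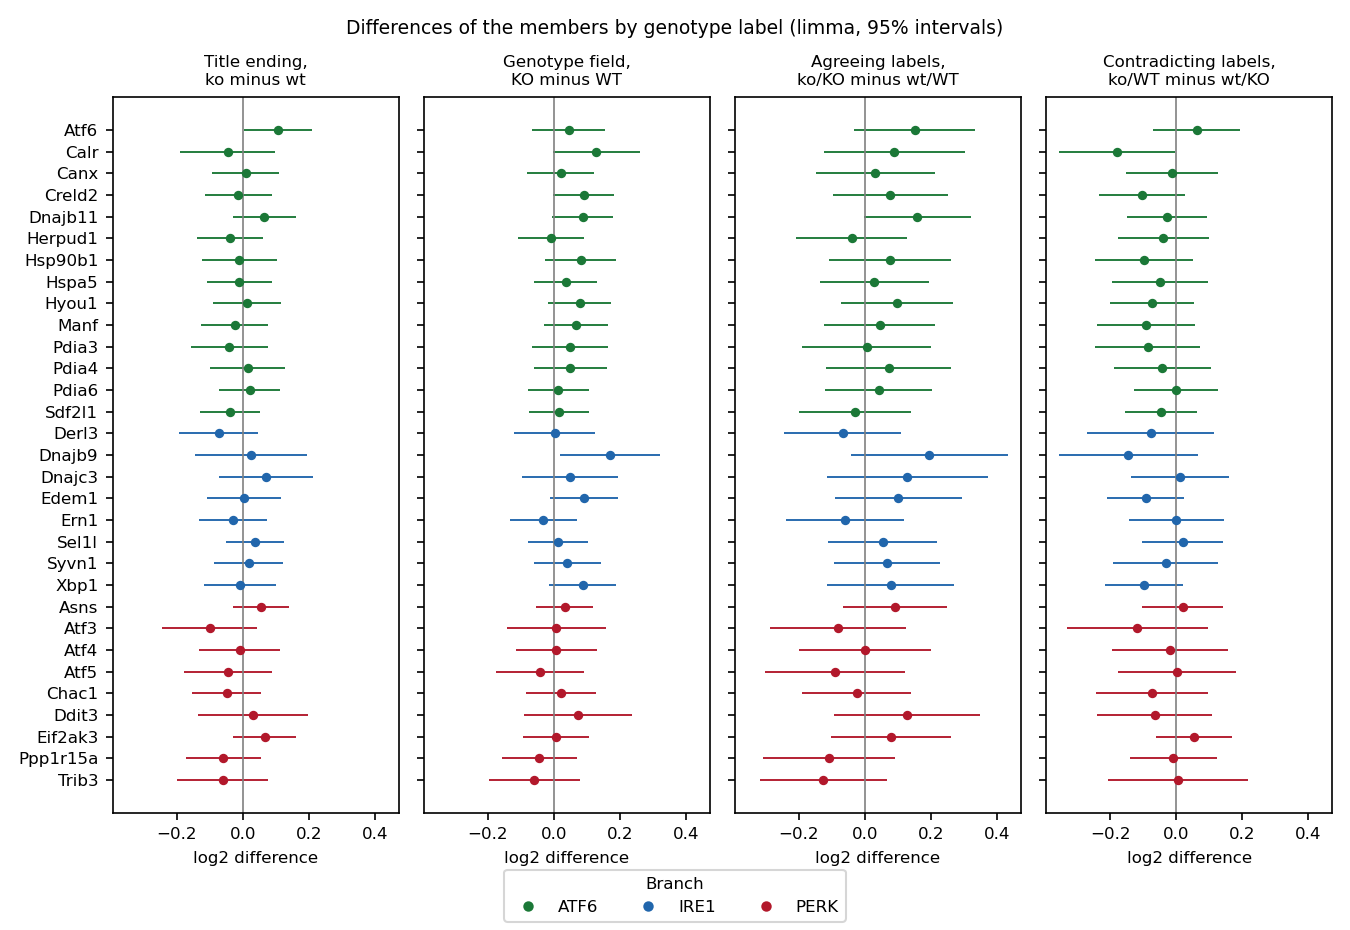
Log2 difference of each member (points) with its 95% interval (lines) from limma, by title ending, by genotype field, and on the 9 agreeing and the 9 contradicting arrays. Colours are stress branches. By title ending the points sit on both sides of 0, and by field 26 of 31 are above it. No member has an adjusted p under 0.05.

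Other genes of the pathway were followed in 7 lists, and 0 of their members passed an adjusted p of 0.05 with limma by either label. By field, genes of ER translocation and signal peptide removal were higher with KO for 22 of 27, with a median of 0.057. Other folding enzymes were higher for 15 of 22, other degradation genes for 17 of 21 and genes of eIF2 control for 11 of 13. Cytosolic heat shock genes, which answer to another stress response, were higher for 10 of 11. Other targets of ATF4 were higher for 16 of 28 and relatives and proteases of ATF6 for 6 of 10. By field the share over all genes was 46.6%, and 61.8% outside the dimmest 40%.

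By ending the counts were 22 of 27 for translocation, 13 of 22 for folding, 15 of 21 for degradation and 10 of 13 for eIF2 control. They were 8 of 11 for heat shock, 15 of 28 for ATF4 targets and 5 of 10 for the ATF6 relatives. The share over all genes was 51.6%, and 66.6% outside the dimmest 40%. In each list the genes with the smallest p by ending are given. Among translocation genes they were Srp72, of the signal recognition particle, at 0.15, and Sec61a1, the translocation channel, at 0.077. They were the disulfide isomerase Pdia5 at -0.10 and the prolyl isomerase Fkbp14 at 0.11 among folding enzymes. The derlin Derl2 at 0.11 and the extraction cofactor Ufd1 at 0.083 led the degradation genes. The eIF2B subunits Eif2b1 and Eif2b2 were at 0.088 and 0.12, the transcription regulators Cebpb and Nupr1 at -0.14 and -0.12, the NF-Y subunit Nfyb and the protease Mbtps1 at 0.13 and 0.063, and Cryab and Bag3 at 0.14 and 0.068.

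On the agreeing arrays translocation genes were higher for 26 of 27, eIF2 control genes for 12 of 13, degradation genes for 17 of 21 and folding enzymes for 15 of 22. Heat shock genes were higher for 10 of 11, ATF4 targets for 14 of 28 and ATF6 relatives for 6 of 10. The share over all genes was 49.5% there, and 68.4% outside the dimmest 40%. Srp72 was at 0.28, Srp19 at 0.16, Erp44, which retains client proteins in the ER, at 0.26, Fkbp14 at 0.17, Derl2 at 0.23 and Ufd1 at 0.22. Eif2a, which despite its name does not encode eIF2alpha, was at 0.20, and Eif2b2 at 0.20. The secreted factor Fgf21 was at -0.27, Stc2 at -0.20, Nfyb at 0.30, Creb3l3 at -0.21, Hspa1a at -0.12 and Hsp90aa1 at 0.12. On the contradicting arrays 13 of 27 translocation, 5 of 13 eIF2 control, 8 of 21 degradation and 8 of 22 folding genes were higher. So were 5 of 11 heat shock, 14 of 28 ATF4 target and 5 of 10 ATF6 related genes. The share over all genes was 52.9%, and 49.7% outside the dimmest 40%.

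Wfs1 divided the arrays into 10 below 8.2 log2 units (7.86 to 8.07) and 8 above (8.36 to 8.72). This division is a measured value and no label, so the members are described with no test and no genotype is drawn from it. Arrays below it were 2 of 5 ko/KO, 2 of 5 ko/WT, 3 of 4 wt/KO and 3 of 4 wt/WT. Of 31 members 24 had a higher mean on the arrays below, against 48.5% of all genes, with a median log2 difference of 0.038. The share among equally bright genes was not worked out for this division, so the count is not shown to be particular to the members. After quantile normalization 24 members were again higher below, and 44.5% of all genes were lower there. The largest difference of a member was 0.11, for Dnajc3, at percentile 90.6 of the sizes over all genes. For 0 of 31 members the groups did not overlap, against 0.0201% of all genes.

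With all 18 arrays the largest difference among the members was that of Dnajc3, at 9.71 (SD 0.13, n = 10) on the arrays below and 9.60 (SD 0.16, n = 8) above. Dnajb9 was at 9.42 (SD 0.18) and 9.32 (SD 0.17), Pdia3 at 11.48 (SD 0.10) and 11.41 (SD 0.12), and Hspa5 at 11.16 (SD 0.075) and 11.09 (SD 0.086). Each of these gaps was smaller than the larger SD of the gene. Atf3 was lower on the arrays below, at 6.85 (SD 0.12) against 6.94 (SD 0.19), as were Sel1l, Asns, Xbp1, Calr, Atf6 and Syvn1. Among the sensors Eif2ak3 differed by 0.015 and Ern1 by 0.040, and among the PERK outputs Chac1 by 0.063 and Trib3 by 0.046. The direction thus varied within each branch.

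The difference of Dnajc3 fell from 0.11 to 0.065 without ko/KO 2, where its value was 9.26, and Derl3 was then the largest at 0.11. Dnajb9 ran from 0.071 without wt/KO 2 to 0.16 without ko/KO 1. Dnajb9 was the largest without ko/KO 1 or ko/WT 1, and Derl3 also without ko/KO 5. Leaving out wt/KO 3 took Atf3 to -0.036. Calr and Atf6 turned to 0.0046 and 0.0081 without ko/KO 1, and Syvn1 to 0.0076 without ko/WT 2. Leaving out 1 array at a time gave 20 to 26 members higher below, and medians from 0.021 to 0.044. Ttr ran from 8.01 to 12.80 below, with a median of 8.585, and from 8.50 to 10.08 above, with a median of 9.015. The median of hypothalamic neuron markers spanned 7.51 to 8.02 below and 7.48 to 7.98 above. Oligodendrocyte marker medians spanned 9.31 to 9.83 below and 9.63 to 9.95 above.

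**Figure D5:**
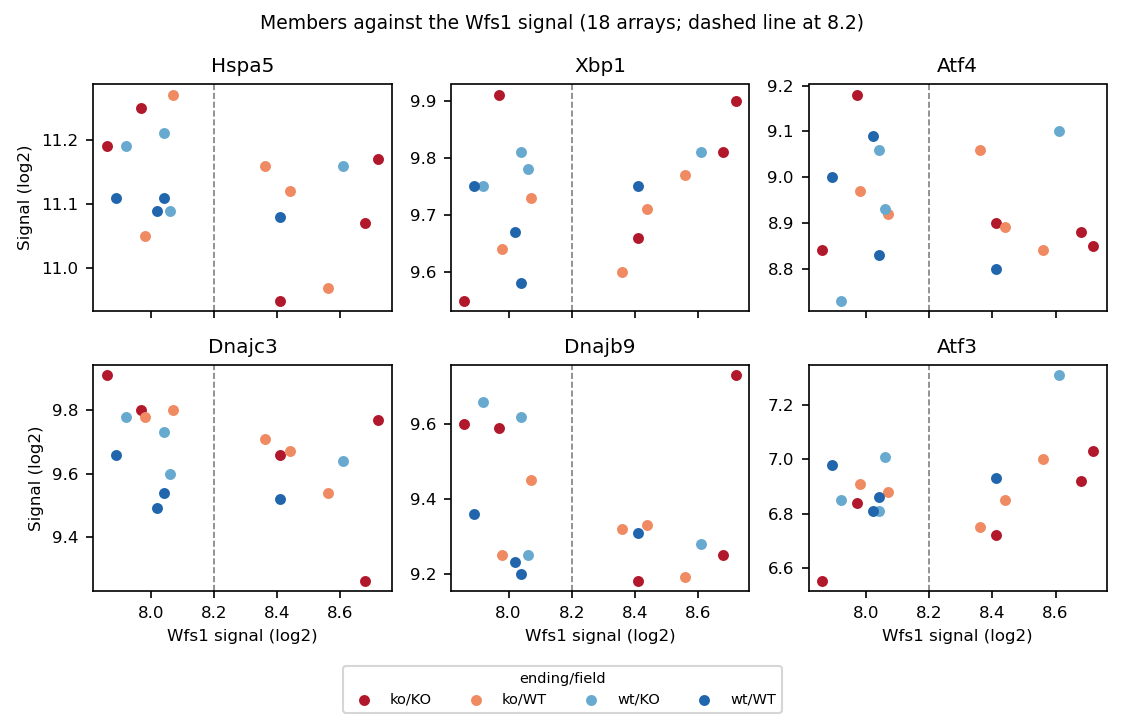
Log2 signal of 6 members against the Wfs1 signal, 1 point per array, coloured by ending/field, with a dashed line at 8.2. The members' ranges on either side overlap, and each label group has arrays on both sides.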

How the data were processed

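RNA from dissected, frozen hypothalami was extracted with Trizol and labelled by a whole-transcript method (per the labels' protocols). Deposited values are log2, 1 per probeset and array, and were normalized by the authors as far as the values show. RMA and MAS5 are named, with no role or version, per the submitters' processing notes. The array model and scan batches were not examined here, since the sources used name neither. The log2 scale was read from the values, 1.11 to 14.54.

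Of 34760 probesets 21640 had 1 gene symbol, 1321 several and 11799 none, from the platform annotation. Entrez identifiers matched RefSeq (GRCm38.p6) for 21553 of 21640. The brightest probeset of each gene was kept, giving 19937 genes. Differences were fitted with limma 3.58.1 (R 4.3.3, lmFit and eBayes) over all genes, without covariates, with Benjamini-Hochberg adjustment and a threshold of 0.05. Correlations and permutation tests used scipy 1.17.1. The fitting script was tested on simulated data. A true log2 difference of 0.25 was called there for 44% of moved genes by ending and 48% by field. It was called for 2% on the agreeing and 6% on the contradicting arrays. Missing the threshold therefore does not show that a difference of this size is absent.

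All 31 members are named, with full values for those of largest SD and smallest p in each role; of other lists, up to 2 genes of smallest p by ending and on the agreeing arrays. Members, lists, pairs and motifs were chosen with earlier results of these data known. The second number in each title is distinct and lower for every ko than for every wt ending, with no meaning given. Whether arrays are separate animals is not stated, so a p-value reflects spread among arrays that may be partly technical. Alternatives were another probeset rule, quantile normalization, a filter on dim genes, an intensity trend, the other label as covariate, and leaving out arrays.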

Additional observations from a re-analysis of the deposited data

Results flagged for a closer look

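In 5 of 124 groups of 4 or 5 arrays tested over the members, 1 array stood far from the others of its group, by Dixon's test; chance flags about 1 in 20 groups. Atf4 was 9.18 on ko/KO 4, with 8.84 to 8.90 on the other 4 ko/KO arrays. Ppp1r15a was 6.97 on ko/KO 5, with 7.2 to 7.28 on the others. Edem1 was 7.91 and Sel1l 10.31 on ko/KO 2, with 8.17 to 8.27 and 10.47 to 10.52 on the other ko/KO arrays. Eif2ak3 was 8.48 on wt/WT 2, with 8.68 to 8.72 on the other wt/WT arrays. The array ko/KO 2 had a small SD of all values, 1.95, and wt/WT 2 the smallest, 1.93. The part of this spread in these values was not tested.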

How the results depend on the processing

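No member and no gene passed the adjusted threshold by any label under any alternative run. By title ending the members higher numbered 14 in the comparison as reported, 8 after quantile normalization and 7 with the array SD as a covariate, and 11 to 18 when each array was left out. In the difference between agreeing and contradicting arrays they numbered 26, 17 with the array SD and 26 without the 3 arrays of smallest spread. Leaving out each array gave 22 to 27 higher by field, 19 to 22 on the agreeing and 5 to 10 on the contradicting arrays. The array SD as a covariate, and leaving out the 3 arrays of smallest spread, were chosen after seeing the data. The tested pairs past the threshold numbered 2, and 0 with the mean of probesets, 0 after quantile normalization, 1 with residuals from the 4 group means, 1 without the 3 arrays, and 0 to 3 without single arrays. Mean r within the ATF6 branch was 0.122 after quantile normalization, between ATF6 and IRE1 0.126, over all members 0.0722 (0.07215) and among chaperones 0.190. Without the 3 arrays it was 0.116 within the IRE1 branch, 0.175 between ATF6 and IRE1, 0.267 within ATF6 and 0.345 among chaperones.

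Some differences changed sign: Ppp1r15a by field to 0.0005006, Edem1, Eif2ak3 and Dnajc3 on the agreeing arrays from 0.1005, 0.078 and 0.1275 to -0.0178, -0.01463 and -0.0222, and Atf6 in the difference to -0.001028, all with the array SD. Without the 3 arrays Ern1 by field was 0.004643, and in the difference Ppp1r15a was 0.0055 and Ern1 0.02. Asns on the contradicting arrays ranged from -0.0025 without ko/WT 5 to 0.04533 without wt/KO 3. The cause was not tested. No paired analysis was possible because the labels give the groups no shared replicate numbers. Depth does not apply to arrays, and signal over background could not be examined.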
